A study of Homo sapiens with 18 samples.

Results

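The genes described here encode the mitochondrial ribosomal proteins (MRPs), and they were followed in HepG2 cells and in a HepG2 line edited in APOA4, before and during hypoxia. All protein-coding genes whose symbol starts with MRPL or MRPS and a digit were taken, which gave 78 of the 61806 genes of the count table. A further 86 genes with such a symbol are pseudogenes, antisense RNAs or divergent transcripts and were left out. By symbol, 49 members are MRPL genes and 29 are MRPS genes. By the place of the protein in the ribosome, 51 members belong to the large subunit and 26 to the small subunit, since MRPS18A and MRPS30 carry small-subunit symbols but sit in the large subunit. MRPS36 belongs to neither and is known as a component of the 2-oxoglutarate dehydrogenase complex.

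The mitochondrial ribosome, or mitoribosome, translates the few mRNAs that the mitochondrial genome encodes, all of which specify subunits of the respiratory chain and of ATP synthase. Its ribosomal RNAs are transcribed from mitochondrial DNA, whereas its proteins are encoded in the nucleus, made in the cytosol and imported. The small subunit binds the mRNA and holds the decoding centre, and the large subunit joins the amino acids and releases the growing chain towards the inner membrane. Hepatocytes are rich in mitochondria, and their oxidation of fatty acids relies on the respiratory chain that this ribosome helps to build.

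HepG2 is an established line from a human liver tumour. The study asked how loss of APOA4, an apolipoprotein of lipid transport, alters the response of these cells to low oxygen, and compared the parental line (genotype WT) with an APOA4 knockout line (APOA4-KO) at 3 time points, with 3 libraries in each of the 6 groups. The 0 h cells of both lines were untreated, at 21% oxygen, and the 24 h and 48 h cells of both lines were under hypoxia, at 1% oxygen. The knockout was made with CRISPR-Cas9 and guide RNAs against exons of APOA4, and colonies grown from single cells with mutations in both alleles were selected. A single edited line was sequenced, so the edit and any other difference between these cell populations cannot be told apart. Cultures of 24 h or 48 h at 21% oxygen were not part of the design, and hypoxia and time in culture therefore cannot be told apart either. The labels do not say whether the 3 libraries of a group came from separate cultures, and the p-values below then measure the spread between these libraries, which may be technical.

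The libraries held 76481820 to 91604947 counts, of which the members took 0.254% to 0.362%. The lowest count of any member in any library was 289, and all 78 members passed the filter on low counts, among 19743 genes tested. APOA4 itself was measured at 6.12 ± 0.417 FPKM in HepG2 before hypoxia (mean ± SD, n = 3), 13.04 ± 0.430 after 24 h of it and 13.8 ± 1.04 after 48 h. In APOA4-KO it stood at 5.32 ± 0.445, 5.37 ± 0.265 and 5.07 ± 0.274 FPKM at the same times. The log2 fold change of APOA4 between the lines was -0.23 before hypoxia (edgeR adjusted p = 0.04), -1.35 after 24 h of it (adjusted p = 6.6e-11) and -1.29 after 48 h (adjusted p = 9e-11), so the transcript was lower but not absent in the edited line. The summed level of 6 hepatocyte-like markers (ALB, AFP, APOB, TTR, SERPINA1 and HNF4A) lay between 36074.0 and 55996.2 CPM, the count of a gene scaled to the size of its library, in all 18 libraries, and AFP was higher in APOA4-KO throughout, by 2.71 to 3.00 on the log2 scale. The 6 markers of leukocytes, endothelial cells and fibroblasts summed to 42.5 to 85.3 CPM, most of it CD68, and PTPRC, CDH5 and COL1A2 had no count in some libraries.

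Summed over the members, transcripts of the mitoribosome were most abundant in untreated HepG2 and least abundant in APOA4-KO at 24 h. The FPKM of all members together, a level per length of transcript, was 1659.5 ± 22.4 in HepG2 before hypoxia, 1392.5 ± 17.6 after 24 h of it and 1618 ± 12.5 after 48 h (mean ± SD, n = 3). In APOA4-KO it was 1547 ± 12.7, 1108 ± 18.2 and 1174 ± 24.2. No library of APOA4-KO reached a HepG2 library of the same time in this sum. At 48 h the FPKM sum in HepG2 was again close to that at 0 h, whereas the sum in APOA4-KO lay closer to its 24 h than to its 0 h value. Summed CPM was 3512, 3146 and 3410 in HepG2 and 3298, 2525 and 2882 in APOA4-KO. On that scale APOA4-KO at 48 h lay about midway between its other times. Sums rest most on the abundant members. The median FPKM of the members was 11.5 in HepG2 at 0 h and at 48 h. It was lowest in APOA4-KO at 48 h, at 8.885 against 9.018 at 24 h. Relative to each member's mean over the 18 libraries, the median log2 CPM was 0.13 in HepG2 at 0 h and 0.14 at 48 h. That median was lowest in APOA4-KO at 24 h, at -0.26. The large subunit members summed to 1192, 987 and 1162 FPKM in HepG2 and to 1100.1, 781 and 835 in APOA4-KO, and the small subunit members to 465, 403 and 453.5 FPKM in HepG2 and to 444, 325 and 336 in APOA4-KO. In a bulk sample, fewer cells of a type and less RNA per cell cannot be told apart.

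**Figure D1:**
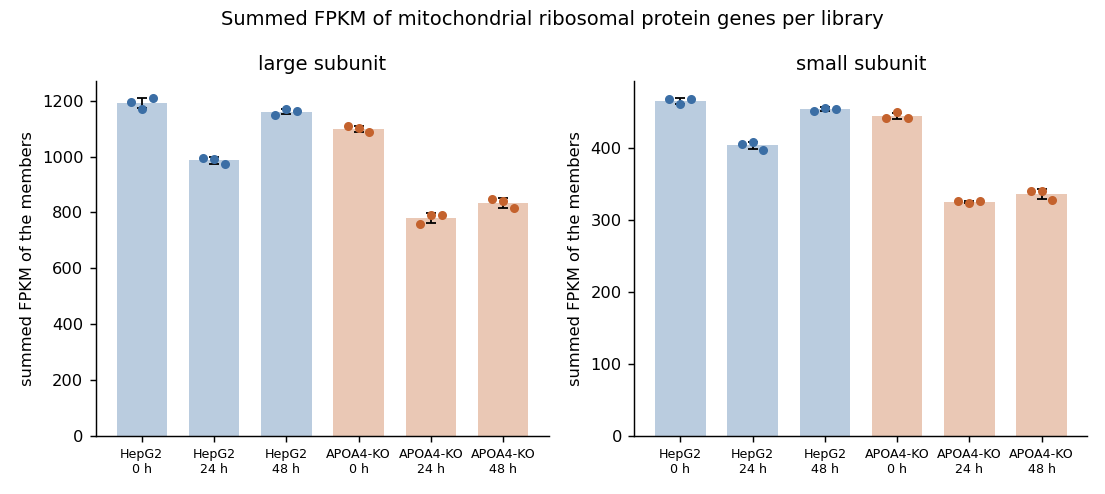
Summed FPKM of the large subunit members (left) and of the small subunit members (right) in each library, by line and time; bars are means of 3 libraries, error bars are SD and points are libraries. In both panels the bars of APOA4-KO at 24 h and 48 h stand below all other groups, at 781 and 835 FPKM for the large subunit and 325 and 336 FPKM for the small subunit.

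Single members differed widely in level. MRPL12, a protein of the stalk to which translation factors bind and which is also known to bind the mitochondrial RNA polymerase, had the highest mean over the 6 groups, at 134 FPKM, ahead of MRPL37 at 75.2 and MRPS18B at 58.7. MRPS25, MRPS22 and MRPS18C had the lowest means, at 1.48, 1.27 and 1.23 FPKM. Part of these levels rests on exons shared with other genes: 68.2% of the exon bases of MRPL12 lie in a read-through transcript of the same strand, and 40.2% of those of MRPS18C lie opposite ABRAXAS1. The labels describe a library protocol that marks strand, the study's methods name another kit, and the strand setting of the counting is not stated, so counts of such genes are uncertain.

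APOA4-KO was first compared with HepG2 at each time, which asks whether the lines differed before hypoxia and during it. A member was called at an adjusted p under 0.05 in edgeR's quasi-likelihood test, with Benjamini-Hochberg adjustment over all genes tested. At 0 h, 27 members (34.6%) were lower and 8 (10.3%) higher in APOA4-KO, when 17.6% of all genes tested were called lower and 12.9% higher. The median log2 fold change of the members was -0.06, against -0.01 over all genes. At 24 h, 48 members (61.5%) were lower and 5 (6.41%) higher, when 24.6% of all genes were lower and 23.6% higher, and the members' median was -0.29 against 0.01. At 48 h, 47 members (60.3%) were lower and 13 (16.7%) higher, when 27.3% of all genes were lower and 23.5% higher, and the median was -0.31 against -0.04. Past an absolute log2 fold change of 1 at 48 h there were 2 members, both lower, MRPS11 and MRPL11, when 7.18% of all genes were past it in this direction and 6.37% in the other.

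The split between higher and lower depended on the scaling at both times of hypoxia. With scaling by library size alone 44 members were called lower and 9 higher at 24 h, when 22% of all genes were lower and 26.5% higher. The median of all genes at 48 h then moved to -0.19. There 55 members were called lower and 6 higher, when 34.4% of all genes were lower and 18.2% higher. Taken relative to the median of all genes, the members' median was -0.27 under either scaling. Without replicate 1 of APOA4-KO at 24 h, 45 members were lower and 7 higher at 24 h, when 4505 of 20464 genes were lower and 4438 higher.

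**Figure D2:**
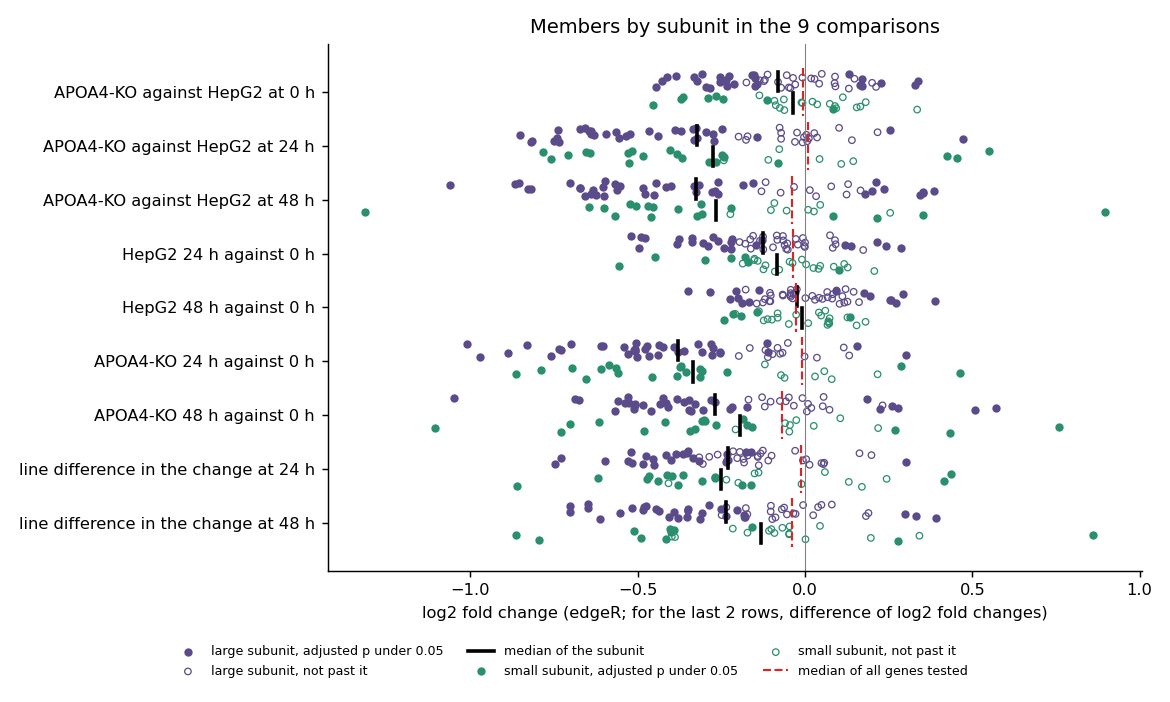
Log2 fold change of 77 members in the 9 comparisons, with the 51 large subunit members in violet and the 26 small subunit members in green (MRPS36 is left out). Filled points passed an adjusted p of 0.05, black bars are the medians of the subunits and the dashed red line is the median of all genes tested; the points of both subunits lie mostly left of that line wherever APOA4-KO at 24 h or 48 h enters.

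Across the 3 times, which share no library, 25 members (32.1%) were lower in APOA4-KO each time, when 9.66% of all genes tested were, and 1 member, MRPL42, was higher each time (1.28%, against 6.72% of all genes). The 25 rest on the calls at 0 h, where leaving out 1 library gave 20 to 26 members lower. Offsets for GC content left 16 members (20.5%, against 14.2% of all genes) lower at 0 h, so the 25 cannot all keep their calls with them. A further 15 members (19.2%, against 4.87%) were not called at 0 h and were lower at both 24 h and 48 h, among them MRPL4, MRPL48, MRPS34 and MRPS18C. In all, 40 members (51.3%, against 14.8%) were lower at both times of hypoxia, that is, 40 of the 48 called lower at 24 h and 40 of the 47 called lower at 48 h. MRPL42 and MRPS5 were the 2 members higher at both (2.56%, against 13.3%), and the call of MRPL42 at 24 h was lost with the offsets for GC content described further on, at 0.05. Direction changed between times for 3 members (3.85%, against 10.3%), MRPL10, MRPL2 and MRPS27, and 8 members (10.3%, against 34.6%) were not called at any time (MRPL16, MRPL22, MRPL32, MRPL33, MRPL53, MRPS10, MRPS25 and MRPS33). The lowest of the 6 group means in CPM fell in APOA4-KO at 24 h for 42 members and in APOA4-KO at 48 h for 15.

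**Figure D3:**
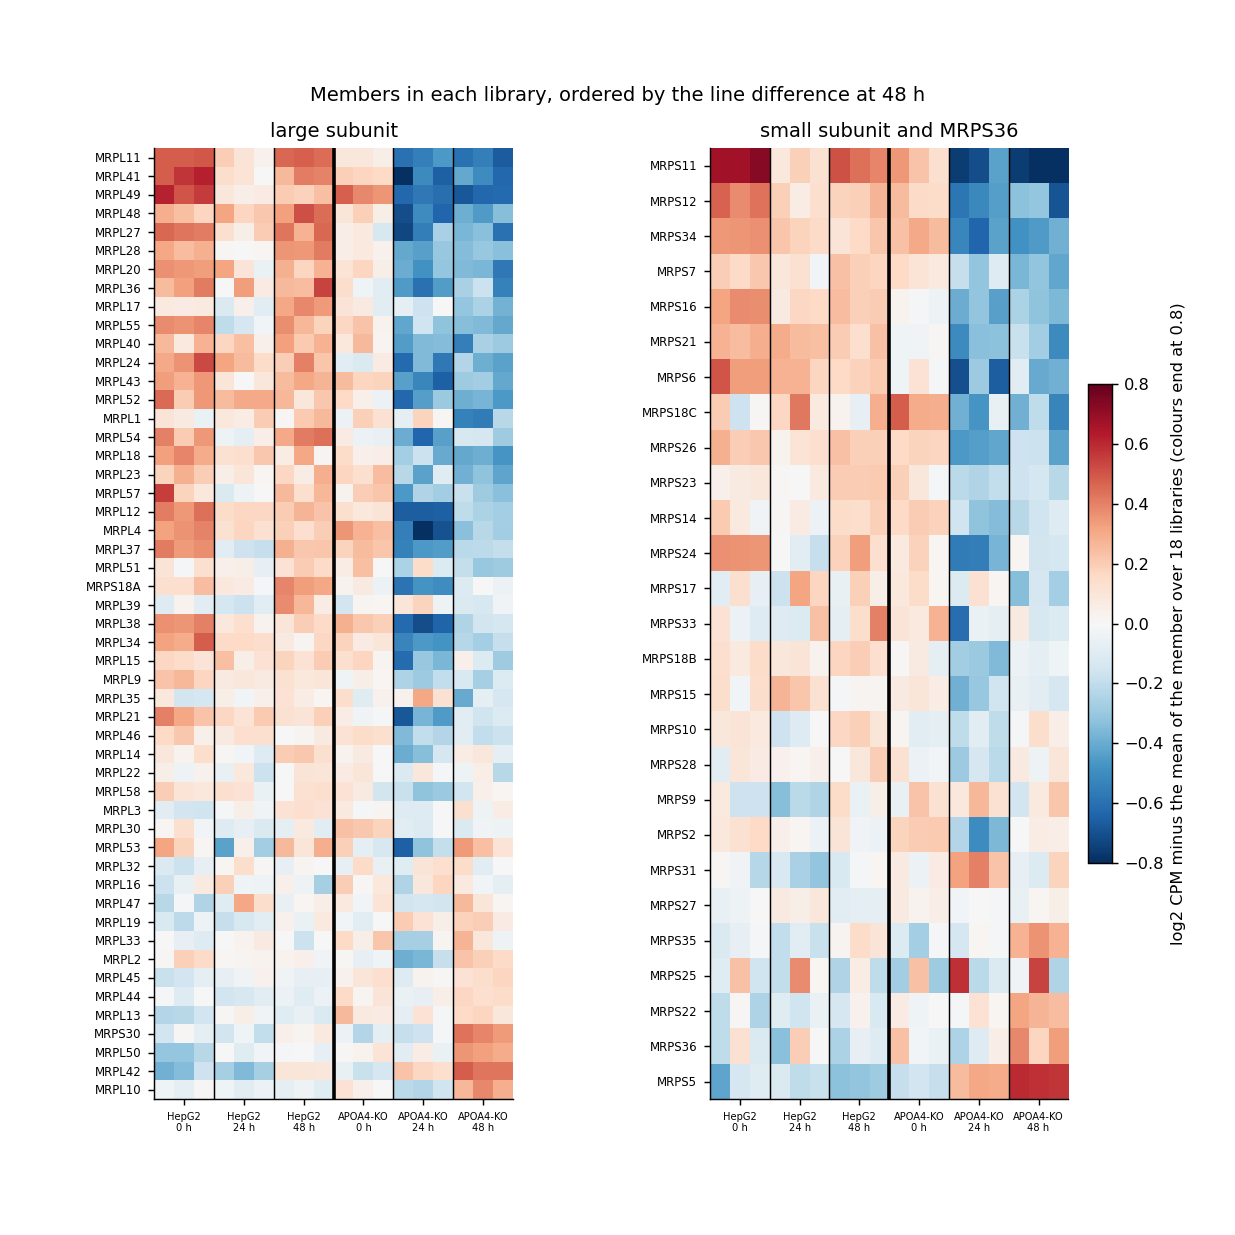
Every member in every library, as log2 CPM minus the mean of that member over the 18 libraries (blue is lower, red is higher), with members ordered from the most negative to the most positive log2 fold change of APOA4-KO against HepG2 at 48 h. Most rows are red or pale in HepG2 and blue in APOA4-KO at 24 h and 48 h, and the rows at the bottom, among them MRPS5 and MRPL42, run the other way.

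Among proteins of the small subunit, MRPS11, which corresponds to a protein of the platform of the bacterial ribosome, showed the lowest ratio of APOA4-KO to HepG2 at 48 h. Its CPM in the 3 libraries was 38.5, 38.5 and 40.0 in HepG2 before hypoxia, 25.6, 27.6 and 26.2 after 24 h of it and 34.3, 32.8 and 31.6 after 48 h. In APOA4-KO it was 30.7, 28.3 and 26.4 to begin with, 14.3, 14.7 and 17.9 after 24 h and 14.3, 13.6 and 11.8 after 48 h. The lines did not overlap at any time, and the gap was widest at 48 h. The log2 fold change of APOA4-KO against HepG2 was -0.45 ± 0.08 (SE, edgeR adjusted p = 0.00021) before hypoxia, -0.76 ± 0.08 (SE, edgeR adjusted p = 2e-07) after 24 h of it and -1.32 ± 0.08 (SE, edgeR adjusted p = 9.6e-11) after 48 h. MRPS12, the counterpart of a protein of the decoding centre, was lower as well, at 32.1, 32.3 and 34.2 CPM in HepG2 and 22.6, 22.9 and 17.5 in APOA4-KO at 48 h, with a log2 fold change of -0.65 ± 0.08 (SE, edgeR adjusted p = 7e-07). MRPS34, a mitochondrion-specific protein of this subunit, did not pass the test at 0 h, at -0.09 ± 0.05 (SE, edgeR adjusted p = 0.1578), and was lower in APOA4-KO at 24 h, at -0.71 ± 0.05 (SE, edgeR adjusted p = 2.4e-10), and at 48 h, at -0.60 ± 0.05 (SE, edgeR adjusted p = 2.1e-09). Its CPM at 48 h was 66.1, 68.6 and 71.8 in HepG2 and 44.0, 44.99 and 47.1 in APOA4-KO, and the lines did not overlap.

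MRPS5 (chr2:95087207-95149434, minus strand, GRCh38), whose bacterial counterpart lies at the mRNA entry of the small subunit, ran the other way. It was measured at 36.1, 44.0 and 45.1 CPM in HepG2 before hypoxia, 44.6, 41.9 and 42.7 after 24 h of it and 38.5, 38.7 and 39.6 after 48 h. In APOA4-KO it was 42.5, 43.3 and 42.5 to begin with, 57.6, 59.7 and 59.3 after 24 h and 73.0, 72.5 and 71.9 after 48 h. The lines overlapped at 0 h, and from 24 h on every library of APOA4-KO was above every library of HepG2. The log2 fold change was 0.04 ± 0.06 (SE, edgeR adjusted p = 0.7168) before hypoxia, 0.45 ± 0.06 (SE, edgeR adjusted p = 1.8e-06) after 24 h of it and 0.90 ± 0.06 (SE, edgeR adjusted p = 1.5e-10) after 48 h, the highest value of any member at 48 h. MRPS31 was higher in APOA4-KO at 24 h, with 10.02, 10.6 and 9.36 CPM against 7.37, 6.68 and 6.43 in HepG2 and a log2 fold change of 0.55 ± 0.10 (SE, edgeR adjusted p = 8.6e-05), but not at 48 h, at 0.05 ± 0.10 (SE, edgeR adjusted p = 0.7408). The call at 24 h was lost with GC offsets, at 0.16. MRPS35 and MRPS22 were higher at 48 h, at log2 fold changes of 0.22 ± 0.06 (SE, edgeR adjusted p = 0.0053) and 0.35 ± 0.07 (SE, edgeR adjusted p = 0.00015). MRPS25, among the members of lowest level, spread from 23.4 to 40.7 CPM within APOA4-KO at 24 h alone and was not called at any time.

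In the large subunit, MRPL11 (chr11:66435075-66466738, minus strand, GRCh38), which forms the base of the stalk, was lower in APOA4-KO at all times. Its CPM was 101, 101 and 102 in HepG2 before hypoxia, 82.5, 77.2 and 73.8 after 24 h of it and 99.2, 100.4 and 98.0 after 48 h. In APOA4-KO it was 76.6, 76.7 and 74.6 to begin with, 47.7, 49.3 and 52.4 after 24 h and 47.7, 49.4 and 45.5 after 48 h. HepG2 was thus back near its 0 h level at 48 h, and APOA4-KO was not. The log2 fold changes between the lines were -0.41 ± 0.04 (SE, edgeR adjusted p = 3.4e-07) before hypoxia, -0.64 ± 0.04 (SE, edgeR adjusted p = 2.3e-10) after 24 h of it and -1.06 ± 0.04 (SE, edgeR adjusted p = 1.5e-13) after 48 h. Of the stalk proteins proper, MRPL12 was lowest in APOA4-KO at 24 h, with 85.0, 85.1 and 85.5 CPM against 149, 150.4 and 151 in HepG2. Its log2 fold change was -0.30 ± 0.03 (SE, edgeR adjusted p = 1.2e-07) before hypoxia, -0.82 ± 0.03 (SE, edgeR adjusted p = 3.3e-14) after 24 h of it and -0.48 ± 0.03 (SE, edgeR adjusted p = 3.6e-11) after 48 h. MRPL10, which anchors MRPL12 in the stalk, changed direction, from -0.14 ± 0.04 (SE, edgeR adjusted p = 0.0033) at 24 h to 0.39 ± 0.04 (SE, edgeR adjusted p = 5e-08) at 48 h. At 48 h it stood at 138, 149 and 139.7 CPM in APOA4-KO and at 108, 111 and 107 in HepG2, so 1 stalk protein was above and the other below HepG2 at that time.

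MRPL49 (chr11:65122183-65127371, plus strand), a mitochondrion-specific protein, was measured at 118, 108.9 and 113 CPM in HepG2 before hypoxia, 81.8, 79.5 and 80.6 after 24 h of it and 88.5, 87.5 and 90.9 after 48 h. In APOA4-KO it was 107, 100.3 and 98.2 to begin with, 49.6, 51.7 and 50.5 after 24 h and 48.0, 49.8 and 49.9 after 48 h. The lines did not overlap at any time, and both lines were lower during hypoxia than before it. The log2 fold change between the lines was -0.15 ± 0.04 (SE, edgeR adjusted p = 0.0032) before hypoxia, -0.67 ± 0.04 (SE, edgeR adjusted p = 2e-11) after 24 h of it and -0.85 ± 0.04 (SE, edgeR adjusted p = 4.7e-13) after 48 h. MRPL48 and MRPL4, a protein of the wall of the exit tunnel, did not pass the test at 0 h, at -0.12 ± 0.07 (SE, edgeR adjusted p = 0.1929) and -0.07 ± 0.05 (SE, edgeR adjusted p = 0.3407). Both were lower at 24 h, MRPL48 at -0.85 ± 0.07 (SE, edgeR adjusted p = 3.6e-09) and MRPL4 at -0.82 ± 0.05 (SE, edgeR adjusted p = 1.3e-10) on the log2 scale, and no library of APOA4-KO reached HepG2 in either. MRPL41 was lower at 48 h, at -0.87 ± 0.07 (SE, edgeR adjusted p = 5.1e-09), and so was MRPL27, whose bacterial counterpart lies near the peptidyl transferase centre, at -0.82 ± 0.10 (SE, edgeR adjusted p = 5.9e-07). MRPL24 was among the 3 lowest ratios at 0 h, at -0.44 ± 0.08 (SE, edgeR adjusted p = 0.00044).

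Few large subunit genes were higher in APOA4-KO. MRPL42 (chr12:93467488-93516213, plus strand) was measured at 25.8, 26.4 and 29.9 CPM in HepG2 before hypoxia, 27.9, 26.3 and 27.9 after 24 h of it and 35.9, 35.9 and 35.8 after 48 h. In APOA4-KO it was 32.2, 29.7 and 30.6 to begin with, 39.4, 37.6 and 36.9 after 24 h and 46.9, 45.2 and 45.3 after 48 h. The lines overlapped at 0 h and were apart afterwards. Its log2 fold changes were 0.17 ± 0.05 (SE, edgeR adjusted p = 0.0168) before hypoxia, 0.47 ± 0.05 (SE, edgeR adjusted p = 2.7e-07) after 24 h of it and 0.35 ± 0.05 (SE, edgeR adjusted p = 9.7e-06) after 48 h. The value at 24 h fell to 0.05 with GC offsets and was no longer called. MRPL13 and MRPL50 had the highest ratios among the members called at 0 h, at 0.34 ± 0.06 (SE, edgeR adjusted p = 0.00015) and 0.33 ± 0.05 (SE, edgeR adjusted p = 1.6e-05), and MRPL50 was again higher at 48 h, at 0.35 ± 0.05 (SE, edgeR adjusted p = 2.1e-06), but did not pass at 24 h, at 0.01 ± 0.05 (SE, edgeR adjusted p = 0.8779). MRPL45, which holds the ribosome near the inner membrane, was higher at 0 h, at 0.23 ± 0.04 (SE, edgeR adjusted p = 0.00024), and did not pass the test at 24 h, at -0.00 ± 0.04 (SE, edgeR adjusted p = 0.9662).

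**Figure D4:**
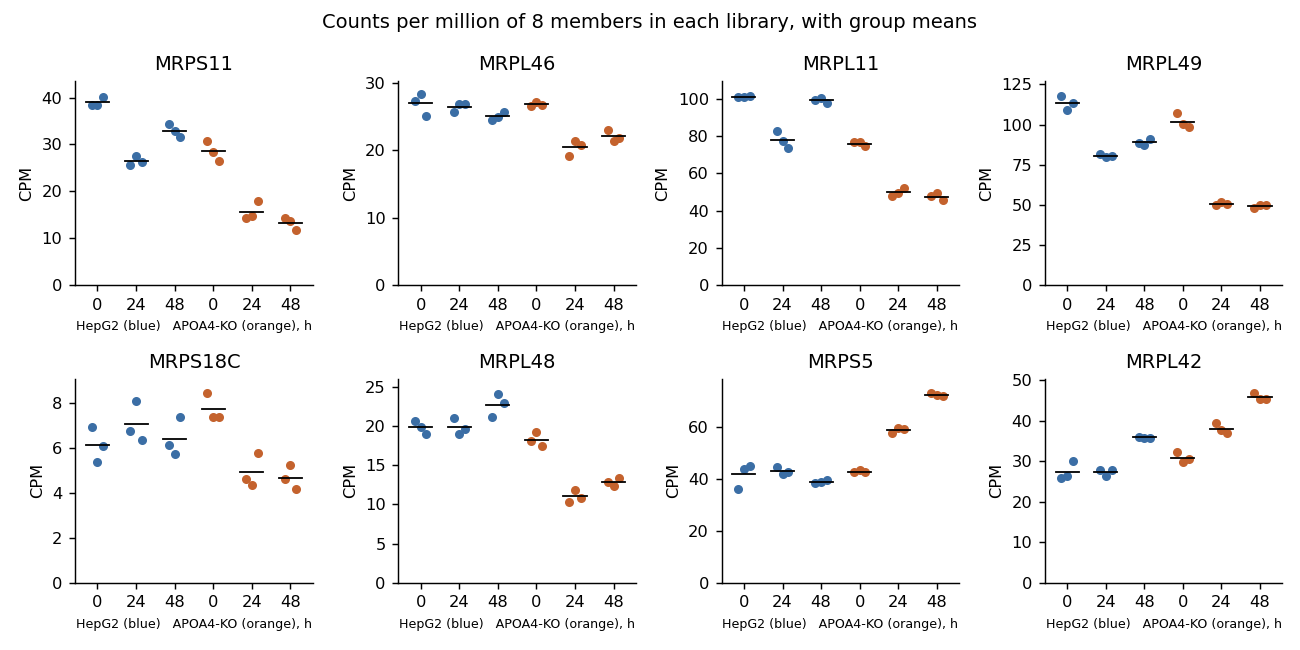
CPM of 8 members in each library (points) with group means (lines), at 0 h, 24 h and 48 h in HepG2 (blue) and APOA4-KO (orange); every axis starts at 0. MRPS11, MRPL11 and MRPL49 are lower in APOA4-KO throughout, MRPL46, MRPS18C and MRPL48 are lower during hypoxia, and MRPS5 and MRPL42 are higher during hypoxia.

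The MRPS18 paralogues are alternative relatives of 1 bacterial protein, and MRPS18A is built into the large subunit whereas MRPS18B and MRPS18C are built into the small one. MRPS18A was measured at 78.3, 77.3 and 73.1 CPM in HepG2 and 49.1, 53.1 and 52.4 in APOA4-KO at 24 h, with a log2 fold change of -0.56 ± 0.05 (SE, edgeR adjusted p = 3.8e-09). MRPS18B, the most abundant of them, stood at 111, 112 and 107 CPM in HepG2 and 86.2, 85.1 and 81.9 in APOA4-KO, at -0.38 ± 0.04 (SE, edgeR adjusted p = 4e-08). MRPS18C was far lower in level. Its CPM was 6.92, 5.37 and 6.06 in HepG2 and 8.43, 7.38 and 7.35 in APOA4-KO at 0 h, where the log2 fold change was 0.34 ± 0.14 (SE, edgeR adjusted p = 0.0857), and 6.75, 8.08 and 6.35 against 4.61, 4.34 and 5.76 at 24 h, where it was -0.53 ± 0.14 (SE, edgeR adjusted p = 0.0045). At 24 h, then, all 3 paralogues were lower in APOA4-KO, across both subunits, and the same held at 48 h, with -0.40 ± 0.04 (SE, edgeR adjusted p = 3.6e-07) for MRPS18A, -0.22 ± 0.04 (SE, edgeR adjusted p = 3.8e-05) for MRPS18B and -0.46 ± 0.14 (SE, edgeR adjusted p = 0.0112) for MRPS18C. Exons of MRPS18A and MRPS18C overlap genes on the other strand over 47.0% and 40.2% of their bases.

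MRPS30, a large subunit protein despite its symbol, did not pass the test at 24 h, at 0.01 ± 0.06 (SE, edgeR adjusted p = 0.9502), and was higher in APOA4-KO at 48 h, at 0.34 ± 0.06 (SE, edgeR adjusted p = 8.3e-05), with 43.4, 42.0 and 40.5 CPM against 33.0, 32.5 and 33.9 in HepG2. MRPL58, a peptide release factor that became a fixed part of the large subunit, was lower at 24 h, at -0.33 ± 0.08 (SE, edgeR adjusted p = 0.0019), and did not pass at 48 h, at -0.12 ± 0.08 (SE, edgeR adjusted p = 0.2395). MRPS36, of the 2-oxoglutarate dehydrogenase complex, was called higher at 48 h, at 0.44 ± 0.14 (SE, edgeR adjusted p = 0.0151), with 6.19, 5.34 and 5.97 CPM against 3.96, 4.51 and 4.40. That call was lost without replicate 1 of HepG2 at 48 h, at 0.39, and without replicate 1 of APOA4-KO at 48 h, at 0.40.

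Within HepG2, the change from 0 h asks how the parental line moved under hypoxia. At 24 h, 24 members (30.8%) were lower and 6 (7.69%) higher than at 0 h, when 18.3% of all genes tested were lower and 11.4% higher. Their median was -0.09, against -0.03 over all genes. Scaling by library size alone moved the median of all genes to -0.11. It gave 40 members lower and 1 higher, when 24.7% of all genes were lower and 8.77% higher. With GC offsets 17 members (21.8%) were lower and 5 (6.41%) higher, when 14.6% of all genes were lower and 13.6% higher. MRPS11, MRPL37 and MRPL55 fell most, at -0.56 ± 0.08 (SE, edgeR adjusted p = 2.2e-05), -0.52 ± 0.03 (SE, edgeR adjusted p = 4.2e-10) and -0.50 ± 0.07 (SE, edgeR adjusted p = 3e-05), and MRPL47, MRPL50 and MRPL13 rose most, at 0.29 ± 0.09 (SE, edgeR adjusted p = 0.0221), 0.24 ± 0.05 (SE, edgeR adjusted p = 0.00038) and 0.22 ± 0.06 (SE, edgeR adjusted p = 0.0076). MRPL47 and MRPL13 lost their calls with library size alone, at 0.21 and 0.14. At 48 h, 12 members (15.4%) were lower and 9 (11.5%) higher, when 14.6% of all genes were lower and 13.1% higher, and the median was -0.03 for the members and for all genes alike. With library size alone 9 members (11.5%) were lower and 11 (14.1%) higher, when 13.5% of all genes were lower and 13.9% higher. With GC offsets 7 were lower and 8 higher, when 9.3% and 10.9% of all genes were. Leaving out 1 library gave 6 to 9 members lower, with 6 without replicate 3 at 0 h or replicate 2 or 3 at 48 h, and 7 without replicate 2 at 0 h. MRPL49 and MRPL34 had fallen most at 48 h, at -0.35 ± 0.04 (SE, edgeR adjusted p = 6.4e-07) and -0.28 ± 0.05 (SE, edgeR adjusted p = 0.00033), and MRPL42 and MRPL39 had risen most, at 0.39 ± 0.05 (SE, edgeR adjusted p = 1.1e-05) and 0.29 ± 0.09 (SE, edgeR adjusted p = 0.0182). MRPL38 at -0.22 ± 0.04 (SE, edgeR adjusted p = 0.00021), MRPL17 at 0.27 ± 0.06 (SE, edgeR adjusted p = 0.0011) and MRPL3 at 0.26 ± 0.04 (SE, edgeR adjusted p = 0.00016) came next on either side. With GC offsets MRPL39 and MRPL38 were no longer called, at 0.17 and -0.08.

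Within APOA4-KO, at 24 h, 53 members (67.9%) were lower and 4 (5.13%) higher than at 0 h, when 22.8% of all genes were lower and 21.5% higher, with medians of -0.36 and -0.01. MRPL49, at -1.01 ± 0.04 (SE, edgeR adjusted p = 8.6e-14), was the 1 member past a log2 fold change of -1, when 2.19% of all genes were past it and 3.69% were past 1. MRPL4 and MRPL38 followed at -0.97 ± 0.05 (SE, edgeR adjusted p = 1.4e-11) and -0.89 ± 0.04 (SE, edgeR adjusted p = 1.2e-12), and MRPS5 and MRPL42 rose, at 0.46 ± 0.06 (SE, edgeR adjusted p = 1.6e-06) and 0.30 ± 0.05 (SE, edgeR adjusted p = 7.3e-05), the latter a call lost with GC offsets, at 0.01. At 48 h, 44 members (56.4%) were lower and 9 (11.5%) higher, when 25.9% of all genes were lower and 23.9% higher, with medians of -0.22 and -0.07, the latter at -0.23 with library size alone. MRPS11 and MRPL49 were past the fold limit, at -1.11 ± 0.08 (SE, edgeR adjusted p = 1.3e-09) and -1.05 ± 0.04 (SE, edgeR adjusted p = 2.5e-14), when 6.85% of all genes had fallen past it and 5.34% had risen past it. MRPS18C at -0.73 ± 0.14 (SE, edgeR adjusted p = 0.00027), MRPS34 at -0.70 ± 0.05 (SE, edgeR adjusted p = 2.5e-10) and MRPL41 at -0.69 ± 0.07 (SE, edgeR adjusted p = 1.4e-07) were next. On the other side, the rise was 0.76 ± 0.06 (SE, edgeR adjusted p = 1.7e-09) for MRPS5, 0.57 ± 0.05 (SE, edgeR adjusted p = 2e-08) for MRPL42, 0.51 ± 0.06 (SE, edgeR adjusted p = 8.1e-07) for MRPS30 and 0.43 ± 0.06 (SE, edgeR adjusted p = 6e-06) for MRPS35.

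The changes of the lines share no library, so their calls can be set side by side. From 0 h to 24 h, 23 members were lower in both lines, which is 23 of the 24 called lower in HepG2 (95.8%) and 23 of the 53 called lower in APOA4-KO (43.4%). Over all genes the shares were 64.9% and 51.9%. No member was higher in both lines at 24 h, against 7.02% of all genes, and MRPL45 rose in HepG2 and fell in APOA4-KO. From 0 h to 48 h, 12 members were lower in both lines, that is, all 12 called lower in HepG2 and 12 of 44 in APOA4-KO (27.3%), when over all genes the shares were 57.5% and 32.5%. The 12 rest on the calls in HepG2, which fell to 6 to 9 without 1 library. MRPL42 and MRPL50 were higher in both (2.56% of the members, against 9% of all genes). They made up 22.2% of the members called higher in HepG2, when the share over all genes was 68.7%. With GC offsets MRPL50 in HepG2 was no longer called, at 0.07. MRPL17, MRPL28, MRPL48 and MRPS23 rose in HepG2 and fell in APOA4-KO. The share of all genes with opposite calls in the lines was not counted at either time.

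The difference between the lines in their change from 0 h was tested itself, as an interaction. At 24 h the change was lower in APOA4-KO for 38 members (48.7%) and higher for 3 (3.85%), when 15.4% of all genes tested were lower and 16.8% higher, with a median difference of -0.23 for the members and -0.01 for all genes. MRPS18C, MRPL4 and MRPL48 differed most, at -0.86 ± 0.20 (SE, edgeR adjusted p = 0.0023), -0.75 ± 0.07 (SE, edgeR adjusted p = 1.9e-07) and -0.73 ± 0.10 (SE, edgeR adjusted p = 7e-06) in log2 units. MRPS31, MRPS5 and MRPL42 were the 3 called in the other direction, at 0.44 ± 0.14 (SE, edgeR adjusted p = 0.0187), 0.42 ± 0.08 (SE, edgeR adjusted p = 0.0005) and 0.30 ± 0.07 (SE, edgeR adjusted p = 0.0033). With GC offsets MRPS5 alone of the members was higher, at 0.36 (edgeR adjusted p = 0.0019), whereas MRPS31 stood at 0.16 and MRPL42 turned to -0.01. At 48 h the change was lower for 34 members (43.6%) and higher for 5 (6.41%), when 17.8% of all genes were lower and 18.6% higher, with medians of -0.18 and -0.04. MRPS11, at -0.86 ± 0.11 (SE, edgeR adjusted p = 6e-06), stood at 1 end and MRPS5, at 0.86 ± 0.08 (SE, edgeR adjusted p = 9e-08), at the other, followed by MRPS30 at 0.39 ± 0.09 (SE, edgeR adjusted p = 0.0012) and MRPL2, a protein near the catalytic centre, at 0.33 ± 0.07 (SE, edgeR adjusted p = 0.0014). Library size alone gave 54 members lower and 2 higher at 48 h, when 26.7% of all genes were lower and 12.6% higher. The median of all genes was then -0.21, and MRPL2 was no longer called, at 0.16.

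The subunits were then set against each other. At 24 h, 17 of the 26 small subunit members and 31 of the 51 large subunit members were lower in APOA4-KO than in HepG2, and 3 and 2 were higher. Their median log2 fold changes were -0.28 and -0.32. At 48 h, 14 small and 33 large subunit members were lower and 4 and 8 were higher, with medians of -0.27 and -0.33, and at 0 h the medians were -0.04 and -0.08. The small minus the large subunit median was 0.04 before hypoxia, 0.05 after 24 h of it and 0.06 after 48 h in log2 units. In single libraries, the median log2 CPM of the small subunit members, each taken relative to its own mean over the 18 libraries, minus that of the large subunit members averaged -0.06 in HepG2 before hypoxia, 0.02 after 24 h of it and -0.00 after 48 h, and 0.00, 0.06 and 0.05 in APOA4-KO. The SD between replicates, pooled over the groups, was 0.03. HepG2 at 0 h was the group with the lowest value, and its 3 libraries lay below those of all other groups. In APOA4-KO at 24 h the libraries alone ranged from 0.01 to 0.13, the latter in replicate 1. Without that library the difference of the medians at 24 h was -0.00, and without replicate 1 of HepG2 at 48 h that at 48 h was -0.00. Leaving out any 1 library gave -0.0030 to 0.0284 at 24 h and -0.0033 to 0.0847 at 48 h. With GC offsets the sign turned at both times, to -0.08 and -0.01. When MRPS18A, MRPS30 and MRPS36 were all placed in the small subunit, by symbol, the difference at 48 h was 0.10.

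Transcript composition moved with these results. The GC content of the longest transcript ran from 33.5% to 72.0% among the members, with a median of 47.7%, and the median was 47.0% for the small and 50.7% for the large subunit. Members rich in GC were lower in APOA4-KO, and they also fell more from 0 h within each line. Across the 78 members the Spearman correlation of GC content with the log2 fold change of APOA4-KO against HepG2 was -0.61 before hypoxia, -0.61 after 24 h of it and -0.52 after 48 h, and over all genes with a transcript it was -0.24, -0.41 and -0.09. Within HepG2 the members' correlation was -0.63 from 0 h to 24 h and -0.52 from 0 h to 48 h, against -0.09 and -0.28 over all genes. Within APOA4-KO it was -0.64 and -0.48, against -0.32 and -0.08 over all genes. These are correlations across genes, which are not independent replicates and which share the libraries. At 48 h, among the 26 members of lowest GC (33.5% to 43.8%), 7 were lower and 8 higher, among the next 26 (44.2% to 51.8%), 17 and 4, and among the 26 of highest GC (52.2% to 72.0%), 23 and 1. Over all genes, the libraries of APOA4-KO at 24 h had the steepest gradient, with a median deviation in log2 CPM of 0.25 among genes of 35.8% GC and of -0.36 among genes of 66.0% GC. HepG2 at 0 h had a gradient of the other sign, from -0.14 to 0.24. So did HepG2 at 24 h, from -0.16 to 0.13, and, less steeply, APOA4-KO at 0 h, from -0.03 to 0.06. The deviations are taken from the mean of each gene over the 18 libraries.

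The test was repeated with an offset for GC content in each library, an alternative chosen after seeing the data. It gave 57 members (73.1%) lower and 2 (2.56%) higher at 24 h, with a median of -0.28, when 21.2% of all genes were lower and 20.4% higher. At 48 h it gave 45 (57.7%) lower and 14 (17.9%) higher, with a median of -0.25, when 24.9% and 25.7% of all genes were. At 0 h it left 16 members (20.5%) lower and 5 (6.41%) higher, when 14.2% and 13.4% of all genes were, so the members' share called lower at that time was closer to that of all genes than with TMM alone. MRPL42 and MRPS31 at 24 h no longer passed the test with GC offsets, at 0.05 and 0.16, while MRPS5 kept its call. At 24 h the median of the 26 members of lowest GC went from -0.04 to -0.39 with the offsets, with 7 and then 23 lower, and that of the 26 members of highest GC from -0.55 to -0.22, with 24 and then 15 lower.

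**Figure D5:**
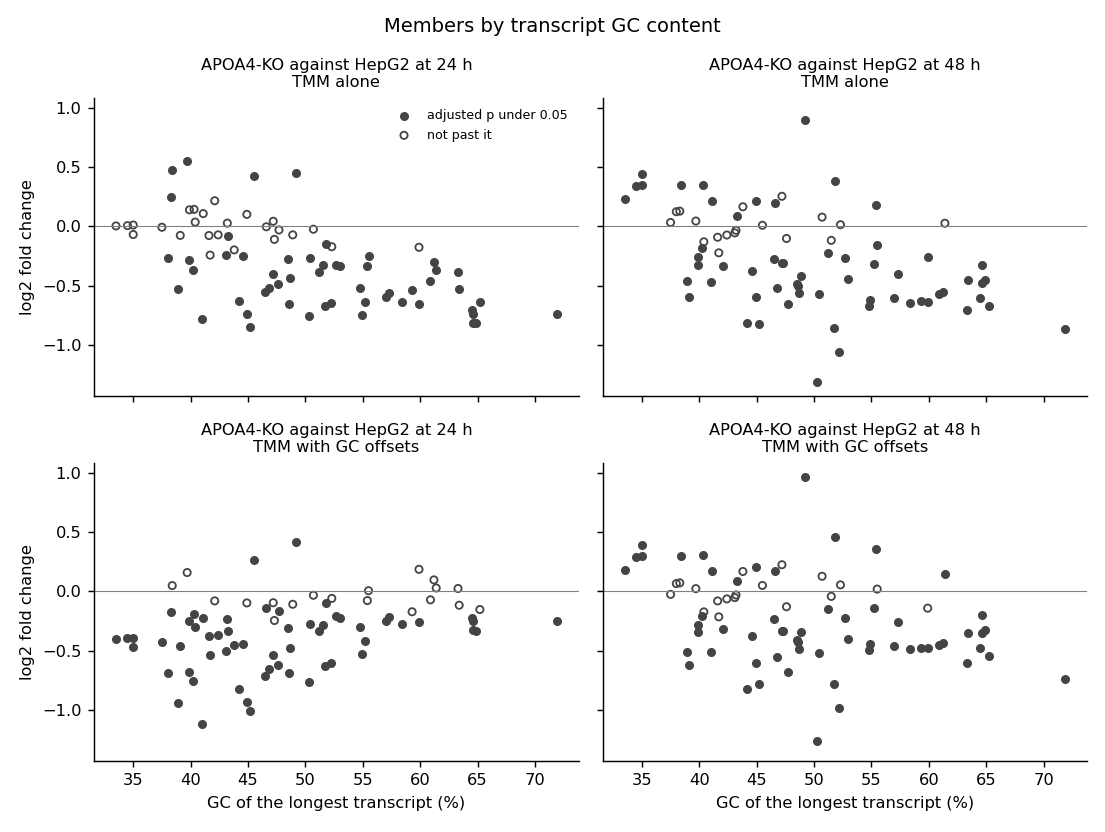
Log2 fold change of APOA4-KO against HepG2 for the 78 members at 24 h (left) and 48 h (right) against the GC content of the longest transcript in percent, with TMM scaling alone (top) and with GC offsets added (bottom); filled points passed an adjusted p of 0.05. With TMM alone the points slope downwards, with a Spearman correlation of -0.61 at 24 h and -0.52 at 48 h, and with the offsets it is 0.37 and -0.37 while most points stay below 0.

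The promoters of the members were examined for what else they share. A window from 250 bases before to 50 after the start, from RefSeq (GRCh38.p14), was at hand for 69 of the 78. The letters CCGGAAG, the core that ETS factors such as GABPA bind, stood on either strand in 29 of these windows (42%), against 10.7% of all 27305 promoter windows. The latter were not limited to protein-coding genes or to genes tested, as the members are. The letters AAGATGGC, bound by YY1, stood in 20 (29%, against 3.03%), and in 15 of 21 cases they lay after the start. The NRF1 letters CGCATGCG were found in 3 (4.35%, against 2.19%), and the E-box CACGTG in 6 (8.7%, against 7.43%). The ETS letters stood in 44% of the small and 40.9% of the large subunit windows, and the YY1 letters in 24% and 31.8%. In windows of cytosolic ribosomal protein genes the ETS letters stood in 33.3% and the YY1 letters in 11.1%, and in those of nuclear respiratory chain subunits in 30.6% and 17.7%. A match of letters is a description and not a binding site. Members with the ETS letters had a median log2 fold change of -0.47 at 24 h and members without them of -0.27. At 48 h these medians were -0.42 and -0.31. For the YY1 letters they were -0.27 and -0.33 at 24 h, and -0.20 and -0.45 at 48 h. The 3 members with the NRF1 letters had a median of -0.03 at 24 h and of -0.46 at 48 h. For the 6 with the E-box it was -0.43 and -0.45.

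Below are the 250 bases before the start of 4 members, 5′ to 3′ on the strand of the gene, chosen because no annotated exon lies in them and because they show members with and without the ETS letters, which are in capitals. The members were taken for a call past the fold limit or for an exon-free window that holds a motif. In MRPS18A (chr6:43687792-43688041, minus strand), MRPS31 (chr13:40771191-40771440, minus strand) and MRPL58 (chr17:75012420-75012669, plus strand) the letters occur close to the start, and MRPL58 has them a second time on the other strand. MRPL11 (chr11:66438849-66439098, minus strand, before the RefSeq start), past the fold limit at 48 h, has none of the motifs searched.
MRPS18A: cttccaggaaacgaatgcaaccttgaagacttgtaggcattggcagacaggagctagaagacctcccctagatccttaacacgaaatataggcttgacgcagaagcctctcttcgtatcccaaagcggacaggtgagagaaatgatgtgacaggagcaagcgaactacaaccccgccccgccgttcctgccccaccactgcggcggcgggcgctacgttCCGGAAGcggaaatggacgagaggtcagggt
MRPS31: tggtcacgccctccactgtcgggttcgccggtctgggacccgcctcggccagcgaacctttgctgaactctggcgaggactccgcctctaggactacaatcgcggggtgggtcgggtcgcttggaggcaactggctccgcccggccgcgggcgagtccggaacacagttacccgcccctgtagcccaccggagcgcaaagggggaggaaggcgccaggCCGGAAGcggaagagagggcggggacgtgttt
MRPL58: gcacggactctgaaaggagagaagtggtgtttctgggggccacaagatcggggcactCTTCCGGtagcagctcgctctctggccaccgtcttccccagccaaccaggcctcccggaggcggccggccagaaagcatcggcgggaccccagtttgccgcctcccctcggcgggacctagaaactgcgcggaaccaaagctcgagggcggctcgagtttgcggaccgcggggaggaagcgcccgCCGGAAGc
MRPL11: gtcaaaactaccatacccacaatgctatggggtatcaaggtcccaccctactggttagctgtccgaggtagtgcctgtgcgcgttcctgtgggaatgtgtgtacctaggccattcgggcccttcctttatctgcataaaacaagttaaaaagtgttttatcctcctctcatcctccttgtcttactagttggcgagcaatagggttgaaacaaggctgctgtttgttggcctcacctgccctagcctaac
At 24 h MRPS18A and MRPL58 were lower in APOA4-KO and MRPS31 was higher, the last a call that was lost with GC offsets, so the members shown with these letters were not all called in 1 direction.

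Within 1000 bases of their own start, 29 of the 78 members (37.2%) have a protein-coding neighbour that starts on the opposite strand, against 16.1% of the 14781 protein-coding genes tested. MRPS11 and MRPL46 are neighbours of this kind on chromosome 15, with 34 bases between their starts (MRPS11 at chr15:88467453-88480773, plus strand, and MRPL46 at chr15:88459476-88467419, minus strand, GRCh38). MRPL46, a large subunit protein, was measured at 24.6, 24.9 and 25.7 CPM in HepG2 and 23.0, 21.4 and 21.8 in APOA4-KO at 48 h. Its log2 fold change was -0.18 ± 0.05 (SE, edgeR adjusted p = 0.0059) there and -0.01 ± 0.05 (SE, edgeR adjusted p = 0.9449) at 0 h, and MRPS11 differed between the lines by far more than MRPL46. MRPL36 and its neighbour NDUFS6, a complex I subunit, were both lower at 48 h, at -0.67 ± 0.11 (SE, edgeR adjusted p = 4.4e-05) and -0.78 (edgeR adjusted p of NDUFS6 = 2e-05). MRPL43 and its neighbour TWNK, the mitochondrial DNA helicase, went apart, at -0.60 ± 0.05 (SE, edgeR adjusted p = 1.4e-08) and 0.44 (edgeR adjusted p of TWNK = 4.4e-08), and exons of MRPL43 overlap TWNK and SEMA4G on the opposite strand over 36.9% of their bases.

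Other genes of mitochondrial translation were read from lists, and background shares are those given above for each comparison. Of the 5 mitoribosome proteins with other symbols (DAP3, CHCHD1, PTCD3, AURKAIP1 and GADD45GIP1), 4 were lower and 1 higher in APOA4-KO at 24 h, and 3 were lower and 0 higher at 48 h, when PTCD3 and DAP3 did not pass edgeR's test, at -0.12 (adjusted p = 0.053) and 0.02 (adjusted p = 0.7558). Of the 27 assembly factors, 16 were lower and 4 higher at 24 h, and 15 and 4 at 48 h. Among them MPV17L2, an inner membrane protein needed to assemble the ribosome, had the lowest ratio, at -1.40 after 24 h (edgeR adjusted p = 2.3e-10) and -1.92 after 48 h (adjusted p = 3.1e-12). Genes with other roles, such as LRPPRC and OXA1L, are also in the list of translation factors. Of its 18 genes 4 were lower (OXA1L among them) and 6 higher (LRPPRC among them) at 24 h. At 48 h 7 were lower and 2 higher, and the 2 were LRPPRC and OXA1L. The list of mitochondrial tRNA synthetases also holds QRSL1, GATB and GATC, which are subunits of an amidotransferase and not synthetases. Of its 20 genes 11 were lower and 4 higher at 24 h, and 8 and 4 at 48 h. NARS2, the asparagine enzyme, stood at 1.28 at 48 h (edgeR adjusted p = 1.6e-10). Of the mRNAs that the mitoribosome translates, all 13 were lower in APOA4-KO at 24 h, with a median of -0.98, and 10 were lower and 2 higher at 48 h, with a median of -0.95.

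The ribosomal RNAs of the mitoribosome were read in the same libraries. MT-RNR1, the RNA of the small subunit, was higher in APOA4-KO at 24 h, at 0.39 (edgeR adjusted p = 1.4e-09), and also at 48 h, at 0.31 (adjusted p = 2.4e-08). MT-RNR2, the RNA of the large subunit, was lower at 24 h, at -0.43 (adjusted p = 2.4e-13), and did not pass at 48 h, at -0.03 (adjusted p = 0.2422, edgeR). The libraries were enriched for poly(A) RNA, and how this selection bears on the values of ribosomal RNAs was not tested.

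Genes of the cytosolic ribosome and of the respiratory chain are given beside the members. Of the 79 cytosolic ribosomal proteins, 76 were lower and 0 higher in APOA4-KO at 24 h, with a median of -0.44. At 48 h 10 were lower and 27 higher, with a median of 0.07, when the members' median was -0.31. The 75 nuclear subunits of the respiratory chain were 59 lower and 5 higher at 24 h, and 51 and 8 at 48 h, with medians of -0.34 and -0.33. Of 9 regulators of mitochondrial genes, 2 were lower and 3 higher at 24 h, and 0 and 6 at 48 h, led by PPARGC1A, a coactivator of mitochondrial biogenesis, at 1.74 (adjusted p = 8.9e-14), and MYC at 1.45 (adjusted p = 2e-17, edgeR). GABPA, of the ETS family, was higher at 24 h, at 0.43 (edgeR adjusted p = 0.0159), and did not pass at 48 h, at 0.04 (adjusted p = 0.8339). GABPB1, also among these regulators, did not pass at 24 h, at 0.16 (edgeR adjusted p = 0.2614), and was higher at 48 h, at 0.29 (adjusted p = 0.0274). YY1 was higher at 24 h, at 0.42 (edgeR adjusted p = 3.1e-07), and at 48 h, at 0.16 (adjusted p = 0.0067). Of the 6 hepatocyte-like markers, 5 were higher and 1 lower in APOA4-KO at 24 h and 6 were higher at 48 h, and of the 6 markers of other cell types 1 was higher at 24 h and 2 at 48 h, and their part in the members' values was not tested.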

How the data were processed

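RNA was sequenced in 18 libraries, 3 in each of the 6 groups, from poly(A) RNA. The labels describe a library protocol that marks strand, and the study's methods name another kit. The authors used fastp for trimming, HISAT2 for alignment to GRCh38.p13 of Ensembl and featureCounts for gene counts, and the count table was used as deposited. The FPKM table was deposited by the authors too, and StringTie is named in the submitters' processing notes; the strand setting and the handling of reads that map to several places are not given in the sources used here. Counts of exactly 4 were 2.66 to 3.12 times as frequent as their neighbours in every library, and the cause was not tested.

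The members and the gene lists were chosen with earlier results of these data known. Symbols came from a table of gene names, which held 42054 of the IDs, and biotypes from GENCODE and RefSeq. Counts of all 6 groups were fitted together with edgeR 4.0.16 in R 4.3.3 (filter on low counts, TMM scaling, quasi-likelihood test), with p-values adjusted by Benjamini-Hochberg over the 19743 genes tested and a threshold of 0.05, and the fit was tested on simulated data. CPM values used the TMM-scaled library sizes, with factors of 0.925 to 1.04. Alternatives were DESeq2 1.42.0, its size factors, library size alone, no filter, limma 3.58.1 on log2(FPKM + 1), a replicate block, subunits by symbol, each library left out and, added later, GC offsets in 20 bins of genes. Transcript GC was known for 19181 genes (97.2%). The lowest count of a member was 289, which sets the counting error of the lowest level.

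Members were named by rule: the 3 with the largest rise and the 3 with the largest fall among those called in a comparison (5 and 5 at 48 h against HepG2 or 0 h), those past an absolute log2 fold change of 1, the 3 highest and the 3 lowest by FPKM, and MRPS18A, MRPS18B, MRPS18C, MRPL12, MRPS30 and MRPL58 for their roles. From the lists, genes past the fold limit and the ribosomal RNAs could be named. Others in the text, such as MRPL46, MRPS35 at 48 h against HepG2, GABPA, GABPB1 and YY1, were chosen after their values were seen.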

Additional observations from a re-analysis of the deposited data

Results flagged for a closer look

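The change from 0 h differed between the lines, by a test of the interaction itself in edgeR with Benjamini-Hochberg adjustment over all genes, for many members. At 24 h the change was lower in APOA4-KO for 38 members and higher for 3, when 15.4% of all genes tested were lower and 16.8% higher. MRPS18C (-0.86), MRPL4 (-0.75) and MRPL48 (-0.73) had the most negative differences in log2 units, and MRPS31 (0.44), MRPS5 (0.42) and MRPL42 (0.30) were the 3 members called with a positive one.

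At 48 h the change was lower in APOA4-KO for 34 members and higher for 5, when 17.8% of all genes tested were lower and 18.6% higher. MRPS11 (-0.86), MRPS18C (-0.80) and MRPL48 (-0.70) had the most negative differences, and MRPS5 (0.86), MRPS30 (0.39) and MRPL2 (0.33) the most positive among the members called. With GC offsets the difference at 24 h was -0.01 for MRPL42 and 0.16 for MRPS31, and neither was called.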

How the results depend on the processing

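Of the results named for single members, 66 in all, 14 lost their call under at least 1 alternative and 1 changed sign, namely the difference between the lines for MRPL42 at 24 h (-0.0116 with GC offsets). The lost calls were those of MRPS31 and MRPL42 against HepG2 at 24 h and in APOA4-KO from 0 h to 24 h, MRPS36 against HepG2 at 48 h, MRPL13 and MRPL47 in HepG2 to 24 h, MRPS11, MRPS12, MRPL38, MRPL39 and MRPL50 in HepG2 to 48 h, and the differences between the lines of MRPS31 at 24 h and MRPL2 at 48 h. With GC offsets, chosen after seeing the data, 5 members were higher and 16 lower in APOA4-KO at 0 h, 2 were higher at 24 h, 7 were lower in HepG2 at 48 h than at 0 h (8 higher), 1 was higher in APOA4-KO at 24 h than at 0 h, and 1 had a higher change in APOA4-KO at 24 h. The small minus large subunit median with these offsets was -0.08485 at 24 h, -0.0144 at 48 h, -0.0434 in HepG2 from 0 h to 48 h, and -0.0629 and 0.0181 in APOA4-KO from 0 h to 24 h and 48 h. With library size alone and with limma on FPKM alike, 9 members were higher at 24 h, 6 at 48 h, and in HepG2 from 0 h to 24 h 1 was higher and 40 lower. The change to 48 h was then higher in APOA4-KO for 2 members with library size and 3 with limma, and lower for 54 and 52. The shares of all genes with library size alone are given above for each of these comparisons. With limma, of 19743 genes, 5485 were higher at 24 h and 3609 at 48 h. In HepG2 from 0 h to 24 h 1727 were higher and 4945 lower, and the change to 48 h was higher for 2587 and lower for 5218. With GC offsets 19.4% of all genes were higher in APOA4-KO at 24 h than at 0 h, and 13% had a higher change at 24 h. The subunit difference under limma was 0.107 at 48 h and 0.0389 in APOA4-KO from 0 h to 48 h, and with subunits by symbol it was 0.103 and 0.109.

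Leaving out 1 library at a time gave 4 (without replicate 1 of APOA4-KO at 0 h, when 2190 of 20459 genes were higher) to 8 members higher at 0 h. It gave 20 to 26 members lower at 0 h, against 27 with all libraries. For HepG2 from 0 h to 24 h it gave 17 to 23 lower, against 24, and for APOA4-KO from 0 h to 48 h 37 to 41, against 44. It gave 3 (without replicate 2 or 3 of HepG2 at 24 h) to 6 higher in HepG2 from 0 h to 24 h, 6 (without replicate 3 of HepG2 at 0 h, or 2 or 3 at 48 h) to 9 lower from 0 h to 48 h, and 2 (without replicate 2 of APOA4-KO at 0 h) to 5 higher in APOA4-KO from 0 h to 24 h. Without the libraries named here, 1940 to 1984 genes were higher in HepG2 to 24 h, of 20467 to 20493 tested. To 48 h 2175 to 2239 were lower, of 20496 to 20500, and in APOA4-KO to 24 h 4098 of 20458 were higher. The subunit difference then ran from 0.0161 to 0.0988 at 0 h, -0.0030 to 0.0284 at 24 h, -0.0033 to 0.0847 at 48 h, -0.0218 to 0.0137 in HepG2 from 0 h to 48 h, -0.0054 to 0.0706 and 0.04805 to 0.1122 in APOA4-KO from 0 h to 24 h and 48 h, and -0.0689 to 0.0265 and 0.0658 to 0.1169 for the difference of the lines at 24 h and 48 h.

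With the replicate number as a block (replicate block), 48 members were lower and 6 higher at 24 h and 46 and 13 at 48 h. Of 19743 genes, 4792 were then lower and 4583 higher at 24 h, and 5303 and 4571 at 48 h. Only MRPS12 in HepG2 from 0 h to 48 h lost its call among named results, at -0.21, and the correlations between same-numbered libraries, from -0.054 to 0.017, give no sign of pairing. Depth limits the members of lowest level most, as the lowest count was 289.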
